A study of Mus musculus with 8 samples.

Results

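The genes described here are the 6 chains that form the receptors for type I, type II and type III interferon and the 3 Janus kinases that these receptors carry, measured in colon epithelium of WT and PIM1+/- mice. They were chosen by name, and all 9 were found, once each, among the 55487 genes of the deposited table. All 9 also passed the filter on low values (at least 1 TPM in at least 4 of 8 libraries) that left 12760 genes to test. TPM is a transcript level per unit of length, scaled to the same sum in every library, so levels of different genes can be compared. There were 4 wild-type (WT) libraries and 4 labelled PIM1+/-, a heterozygous genotype of the serine/threonine kinase gene Pim1. Both groups were of the C57BL/6J strain, both were labelled as intestinal epithelial cells of the colon, and the labels name no treatment, age or sex for either, while the extraction protocol speaks of tissue. The sources used here do not describe how the altered allele was made. Nor do they tie each library to its own animal, so the p-values below speak of the spread between libraries, which may be partly technical.

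Interferons are secreted proteins that announce infection to neighbouring cells. Type I interferons bind a receptor of IFNAR1 and IFNAR2, interferon gamma (type II) binds IFNGR1 and IFNGR2, and type III interferons (lambda) bind IFNLR1 paired with IL10RB. The chains have no kinase activity of their own. JAK1 and TYK2 sit on the type I and type III receptors and JAK1 and JAK2 on the type II receptor, where they phosphorylate STAT proteins that enter the nucleus and switch on interferon-stimulated genes. Gut epithelium is known for its response to type III interferon, since IFNLR1 is largely limited to epithelial cells and a few leukocyte types.

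Facts about the libraries frame these values. The TPM of all listed genes summed to between 990958 and 992187 per library. TPM holds no trace of how many reads were behind a value, so counting error cannot be given. Pim1 itself measured 5.72 to 8.83 TPM in WT and 5.64 to 7.97 TPM in PIM1+/- libraries, overlapping ranges (limma log2 fold change -0.19 ± 0.15 SE, adjusted p = 0.411), so the transcript level does not check the labels. Of 11 epithelial markers all were high enough to test, with Epcam, an adhesion protein of epithelial cells, at 1177 to 1402 TPM over the 8 libraries. Of these 11 markers 7 were higher and 1, the transcription factor gene Cdx1, was lower in PIM1+/- libraries. The summed TPM of 20 T and NK cell markers was 16.4 to 31.9 in WT and 50.2 to 118 in PIM1+/- libraries, and that of 20 myeloid markers 22.4 to 30.9 and 36.4 to 47.4. Ccl5, a chemokine gene, alone gave 3.68 to 10.81 TPM of the T and NK cell sum in WT and 17.2 to 51.5 TPM in PIM1+/- libraries. Xcl1 of that list stood at 2.2 ± 0.853 and 2.17 ± 0.596 TPM. Kit alone gave 18.09 to 22.5 TPM of the myeloid sum in WT and 16.64 to 23.77 TPM in PIM1+/- libraries. In these lists 8 of 13 tested T and NK cell markers and 3 of 7 tested myeloid markers were higher and 0 were lower. Over all tested genes 8.93% were higher and 8.54% lower. Cd8a and Itgae of the T and NK cell list, Mcpt1 and Mcpt2 of the myeloid list and the fibroblast marker Fn1 were below 1 TPM in every WT library. They passed the filter through PIM1+/- libraries alone. The filter thus favoured higher calls, and the marker counts are a description only. Of the tested fibroblast markers 2 of 5 were higher and 1 lower, and none of 2 B and plasma cell, 2 endothelial and 1 smooth muscle markers passed. The neutrophil gene S100a9, the fibroblast gene Lum and the endothelial gene Emcn were listed at 0 in all libraries, each as the only gene of its list. Others of those lists were measured, so these zeros do not show that a cell type was absent. S100a8, also a neutrophil gene, was at 0.56 TPM in PIM1+/- replicate 2. Vim of the fibroblast list was at 2.6 to 6.61 TPM and Vwf of the endothelial list at 1.03 to 3.34 TPM over the 8 libraries. Mitochondrial transcripts with their nuclear copies made up 27.1% to 30.4% of the TPM in WT and 20.9% to 23.5% in PIM1+/- libraries. The part of these differences in the results below was not tested beyond the alternatives given. In bulk RNA, fewer cells of a type and less RNA per cell cannot be told apart.

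Transcripts of the interferon receptors and their kinases were compared between PIM1+/- and WT libraries. A single member, Ifngr1, passed the test, and it fell by 11.6% in mean TPM. None of the 9 rose (at an unadjusted p under 0.05 there was 1 with a higher value, Jak2). The other 8 stayed short of the threshold, and over the 9 the log2 fold changes (PIM1+/- over WT, of TPM + 1) ran from -0.18 to 0.38 with a median of 0.03, beside a median of -0.01 over all tested genes. The test was limma across all 12760 genes with Benjamini-Hochberg adjusted p-values, called at 0.05, and 17.5% of tested genes passed it, 8.93% as higher and 8.54% as lower in PIM1+/-. The share of members that passed, 1 of 9 or 11.1%, lies near that background and is no result about the members as a set. Errors after a level are SD (n = 4 libraries of a genotype), those after a log2 fold change are SE, and values per library are given in the order of replicates 1 to 4.

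**Figure D1:**
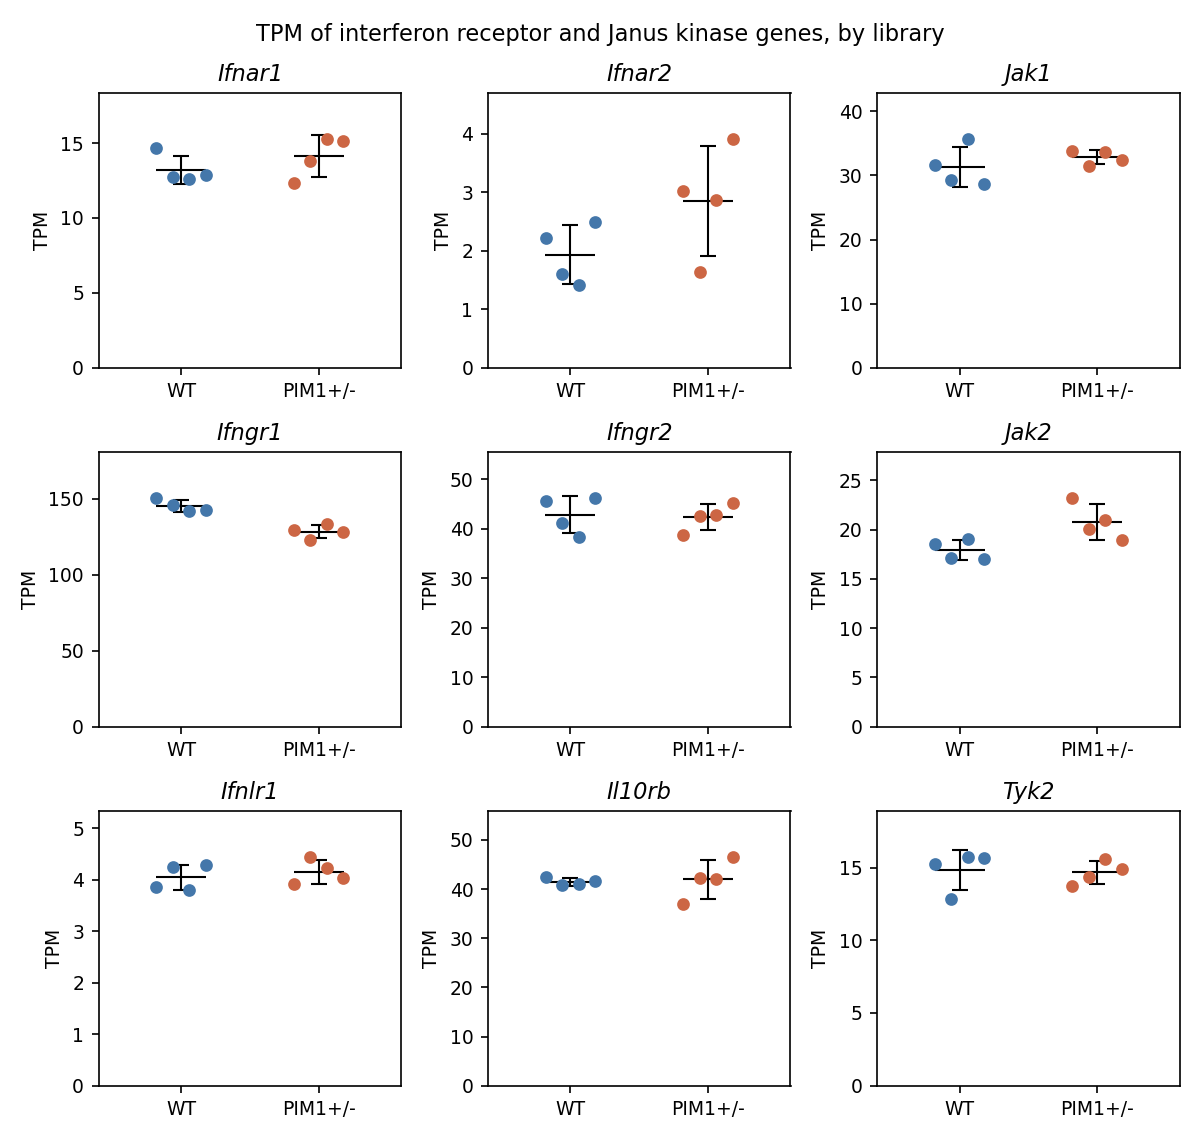
TPM (vertical axes, from 0) of the 9 genes in each library, with WT in blue and PIM1+/- in orange; points run from replicate 1 to 4 within a genotype, and black bars give the mean and SD of 4 libraries. The genotypes are apart for Ifngr1, where WT libraries lie between 141.9 and 150.32 TPM and PIM1+/- libraries between 122.79 and 133.03 TPM, and overlap in the other 8 panels.

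Levels of the receptor chains spanned a wide range, and the order was stable across libraries. Ifngr1 was the most abundant member with a mean of 137 TPM over the 8 libraries, above 93.3% of tested genes. Ifngr2 (42.6 TPM) and Il10rb (41.7 TPM) followed and could not be ranked, since Ifngr2 was the higher of the pair in 6 of 8 libraries. Jak1 (32.1 TPM), Jak2 (19.4 TPM) and Tyk2 (14.8 TPM) came next, each above the following one in all 8 libraries and with ranges that did not touch. Tyk2 and Ifnar1 (13.7 TPM) overlapped, with Tyk2 higher in 7 of 8 libraries. The lowest were the chains that make a receptor specific for lambda or complete the type I receptor. Ifnlr1 (4.1 TPM) was above Ifnar2 (2.4 TPM) in all 8 libraries, though their ranges over libraries overlapped, and only 12.7% of tested genes had a lower mean than Ifnar2.

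Ifnar1, the chain of the type I receptor that binds TYK2 (ENSMUSG00000022967, GRCm38 chromosome 16, 91485238 to 91507441), measured 14.64, 12.74, 12.63 and 12.84 TPM in the WT libraries and 12.32, 13.81, 15.26 and 15.15 TPM in the PIM1+/- libraries. The lowest PIM1+/- library was below every WT library, and the highest WT library was below 2 of the PIM1+/- libraries. Its log2 fold change of 0.09 ± 0.09 did not pass (95% interval -0.11 to 0.28, limma adjusted p = 0.526). In a scaling that leaves out mitochondrial transcripts it was -0.01, so no direction can be given for Ifnar1.

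Ifnar2, the high-affinity chain that binds JAK1 (ENSMUSG00000022971, chromosome 16, 91372783 to 91405589), measured 2.22, 1.61, 1.41 and 2.49 TPM in the WT libraries and 3.02, 1.63, 2.87 and 3.91 TPM in the PIM1+/- libraries. Of the PIM1+/- libraries 3 were above every WT library, while replicate 2 was among the WT values. Its log2 fold change was the largest of the 9 and the least certain, 0.38 ± 0.20 (95% interval -0.08 to 0.84, adjusted p = 0.236). The coefficient of variation, SD over mean, was 26.2% in WT and 32.8% in PIM1+/-, the highest among the members. Without PIM1+/- replicate 2 the value was 0.55 (adjusted p = 0.0692, exact permutation p = 0.0286, the smallest possible), without replicate 4 it was 0.25 (adjusted p = 0.44), and with a covariate, the mean standardised level of 30 immune, stromal and vascular markers (the non-epithelial score), it turned to -0.32 (adjusted p = 0.611).

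Ifngr1, the ligand-binding chain of the interferon gamma receptor (ENSMUSG00000020009, chromosome 10, 19591949 to 19610229), measured 150.32, 145.6, 141.9 and 142.86 TPM in the WT libraries and 129.5, 122.79, 133.03 and 128.02 TPM in the PIM1+/- libraries. Every PIM1+/- library was below every WT library, which was the case for Ifngr1 alone among the 9, and such separation in either direction was seen for 23.5% of all tested genes. The means were 145 ± 3.77 and 128 ± 4.25 TPM, a ratio of 0.884 (exact permutation p = 0.0286, two-sided, the smallest that 4 against 4 libraries can give). On the log2 scale Ifngr1 fell by 0.18 ± 0.05 (95% interval of the log2 fold change -0.28 to -0.07, limma adjusted p = 0.0276). The gene was among the steadiest measured: 98.9% of tested genes had a larger SD within genotypes.

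The call on Ifngr1 was near the threshold. It was lost in 5 of the 8 fits that left out 1 library, without WT replicate 1 (adjusted p = 0.0872), WT replicate 2 (0.0527), WT replicate 4 (0.0538), PIM1+/- replicate 2 (0.0732) or PIM1+/- replicate 4 (0.0533), with values between -0.19 and -0.16 throughout. It was also lost in limma without the trend (adjusted p = 0.0687) and with the non-epithelial score as a covariate (-0.24 ± 0.09, adjusted p = 0.218). That score correlated with genotype at 0.843, so a fit with it separates the score from genotype poorly. Its size moved with the scaling, to -0.16 after upper quartile scaling (adjusted p = 0.0395) and to -0.29 without mitochondrial transcripts (adjusted p = 0.00276), where the median of all genes moved to -0.11.

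Ifngr2, the signalling chain that brings JAK2 to the receptor (ENSMUSG00000022965, chromosome 16, 91547072 to 91565623), measured 45.63, 41.17, 38.23 and 46.14 TPM in the WT libraries and 38.78, 42.46, 42.79 and 45.22 TPM in the PIM1+/- libraries. The PIM1+/- values lay within the WT range. Ifngr2 had a log2 fold change of -0.01 ± 0.08 (95% interval -0.19 to 0.16, adjusted p = 0.924), and its sign changed with the library left out. The TPM of Ifngr1 was 3.41 ± 0.27 times that of Ifngr2 in WT and 3.04 ± 0.231 times in PIM1+/- libraries, with ranges of 3.1 to 3.71 and 2.83 to 3.34 that overlapped.

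Ifnlr1, the chain that binds interferon lambda (ENSMUSG00000062157, chromosome 4, 135686287 to 135708181), measured 3.87, 4.24, 3.8 and 4.28 TPM in the WT libraries and 3.91, 4.44, 4.23 and 4.03 TPM in the PIM1+/- libraries. The groups overlapped almost wholly. Ifnlr1 had a log2 fold change of 0.03 ± 0.09 (95% interval -0.17 to 0.23, adjusted p = 0.851), and -0.06 in the scaling without mitochondrial transcripts. Its partner Il10rb, a chain shared with the receptors for IL-10 and IL-22 (ENSMUSG00000022969, chromosome 16, 91406164 to 91425834), measured 42.39, 40.78, 40.94 and 41.7 TPM in the WT libraries and 36.93, 42.31, 42.13 and 46.48 TPM in the PIM1+/- libraries. The WT libraries were tight, with a coefficient of variation of 1.79%, and the PIM1+/- libraries spread to both sides of them (9.32%). The log2 fold change of Il10rb was 0.01 ± 0.07 (95% interval -0.15 to 0.17, adjusted p = 0.923), and -0.09 in the scaling without mitochondrial transcripts. Per unit of length, Il10rb transcripts outnumbered those of Ifnlr1 by 10.3 ± 0.689 in WT and 10.1 ± 0.971 in PIM1+/- libraries, so the lambda-specific chain was the scarcer of the pair in every library.

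None of the 3 kinases passed the test. Jak1, the kinase common to all of these receptors (ENSMUSG00000028530, chromosome 4, 101152367 to 101265282), measured 31.58, 29.32, 35.66 and 28.64 TPM in the WT libraries and 33.83, 31.5, 33.71 and 32.42 TPM in the PIM1+/- libraries. The PIM1+/- values lay within the WT range (log2 fold change 0.07 ± 0.08, 95% interval -0.10 to 0.24, adjusted p = 0.547), and the sign turned in the scaling without mitochondrial transcripts (-0.03). Tyk2, the partner of JAK1 on the type I and type III receptors (ENSMUSG00000032175, chromosome 9, 21104068 to 21131243), measured 15.27, 12.81, 15.72 and 15.65 TPM in the WT libraries and 13.77, 14.39, 15.63 and 14.9 TPM in the PIM1+/- libraries. These ranges overlapped too (-0.01 ± 0.08, 95% interval -0.20 to 0.17, adjusted p = 0.927).

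Jak2, the kinase of IFNGR2 and of several cytokine and hormone receptors (ENSMUSG00000024789, chromosome 19, 29251828 to 29313080), measured 18.51, 17.11, 19.09 and 17.04 TPM in the WT libraries and 23.18, 20.02, 20.96 and 18.9 TPM in the PIM1+/- libraries. Of the PIM1+/- libraries 3 were above every WT library, and replicate 4 was below WT replicate 3. The means were 17.9 ± 1.02 and 20.8 ± 1.82 TPM (ratio 1.16, exact permutation p = 0.0571, two-sided). The log2 fold change of 0.20 ± 0.08 (95% interval 0.02 to 0.37) had an unadjusted p of 0.0297 and did not pass after adjustment (limma adjusted p = 0.11). In the alternative limma fits it fell short too, with adjusted p between 0.055 and 0.366. The exact permutation p of Jak2 reached its minimum of 0.0286 after upper quartile scaling (ratio 1.17) and without PIM1+/- replicate 4 (ratio 1.19).

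Shares within the Janus kinase family show the same data on a scale that no library scaling can move. Jak1 made up 44.9% ± 1.85 of the summed TPM of Jak1, Jak2, Tyk2 and Jak3 in WT and 45.0% ± 0.603 in PIM1+/- libraries. Jak2 made up 25.2% to 26.5% in WT and 26.7% to 30.7% in PIM1+/- libraries, ranges that did not overlap, and PIM1+/- replicate 1 held the highest share. Tyk2 made up 19.8% to 23.3% and 18.2% to 21.1%. Jak3, the kinase of the common gamma chain receptors of lymphocytes, was the least abundant, with overlapping shares of 6.93% to 8.68% and 6.29% to 6.97%. Its TPM was 5.48 ± 0.256 in WT and 4.82 ± 0.239 in PIM1+/- libraries (-0.16 ± 0.08, adjusted p = 0.218), without overlap. TPM did not overlap between genotypes for 23.5% of all tested genes, and no such background was computed for shares.

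**Figure D2:**
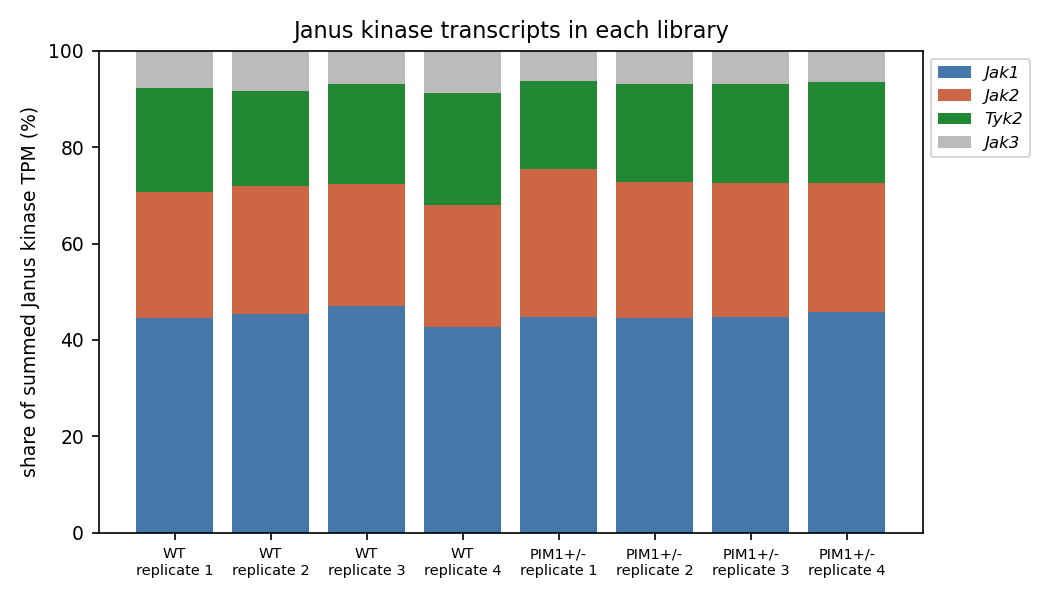
Share (%) of each Janus kinase gene in the summed TPM of the 4 family members, as stacked bars, 1 bar per library. Jak1 holds 42.6% to 47.1% in every library, and the Jak2 share is 25.2% to 26.5% in WT and 26.7% to 30.7% in PIM1+/- libraries.

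No library stood apart for all members. PIM1+/- replicate 1 was the lowest of its genotype for 5 of 9 members (Ifngr2, Il10rb, Tyk2, Ifnar1 and Ifnlr1) and the highest for Jak1 and Jak2. Among WT libraries replicate 3 was the lowest for 5 members, all of them receptor chains, and the highest for the 3 kinases Jak1, Jak2 and Tyk2.

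Among transcription factor genes downstream of the receptors, Stat2, Irf9 and Irf1 rose in PIM1+/- libraries. Stat2, which joins IRF9 in the complex formed after type I and III interferon, measured 16.65, 20.85, 17.27 and 18.81 TPM in the WT libraries and 77.08, 57.65, 53.58 and 56.76 TPM in the PIM1+/- libraries. The lowest PIM1+/- library was well above the highest WT library, and Stat2 rose by 1.67 ± 0.12 on the log2 scale (limma adjusted p = 4.69e-05). Irf9 rose by 1.55 ± 0.10 (adjusted p = 3.45e-05). Irf1, an interferon-induced transcription factor, rose by 0.51 ± 0.08 (adjusted p = 0.00293). Stat2, Irf9 and Irf1 each passed in all 8 fits that left out 1 library. Of the same list Stat3 (0.08), Stat5a (-0.12), Stat5b (-0.04) and Stat6 (0.38) did not pass, with adjusted p between 0.111 and 0.873. As a fold of TPM + 1, the 95% intervals of Stat2 and Irf9 began at 2.65 and 2.5. Those of the members, by contrast, had an upper limit of at most 1.78 (Ifnar2) and, leaving Ifnar2 aside, of 1.29 (Jak2). The interval of Irf1, 1.26 to 1.6, was not beyond the limits of the members. The difference between these gene groups was not itself tested.

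Negative feedback genes were split. Usp18, a protease that binds IFNAR2 and dampens type I signalling, went from 2.03 ± 0.674 to 40.0 ± 17.7 TPM (3.71 ± 0.27, adjusted p = 5.5e-05), and Isg15, the ubiquitin-like protein that USP18 removes from targets and that stabilises it in human cells, from 19.7 ± 7.42 to 270.0 ± 95.6 TPM (3.72 ± 0.29, adjusted p = 8.32e-05). Socs1, an inhibitor of Janus kinases, rose from 1.53 ± 0.337 to 2.76 ± 0.751 TPM (0.56 ± 0.16, adjusted p = 0.044), a call kept in 1 of the 8 fits that left out 1 library (adjusted p 0.0493 to 0.0991). Socs3, another such inhibitor, stood at 8.04 ± 2.24 and 8.99 ± 2.89 TPM (0.14 ± 0.24, adjusted p = 0.736). Of 21 tested feedback and regulator genes 3 rose and 1 fell, with a median of 0.08. Over all tested genes 8.93% rose and 8.54% fell, and the list was not tested as a set. The gene that fell was Pias2, a SUMO ligase of the family named for inhibitors of STATs (-0.46 ± 0.10, adjusted p = 0.0149). With the non-epithelial score as a covariate, Stat2, Irf9, Usp18 and Isg15 still passed. Irf1 (0.38, adjusted p = 0.229), Socs1 (adjusted p = 0.459) and Pias2 (adjusted p = 0.14) did not. The score correlated with genotype at 0.843, and in that fit 108 of all tested genes were higher and 25 lower. The summed T and NK cell markers were also higher in every PIM1+/- library than in any WT library.

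**Figure D3:**
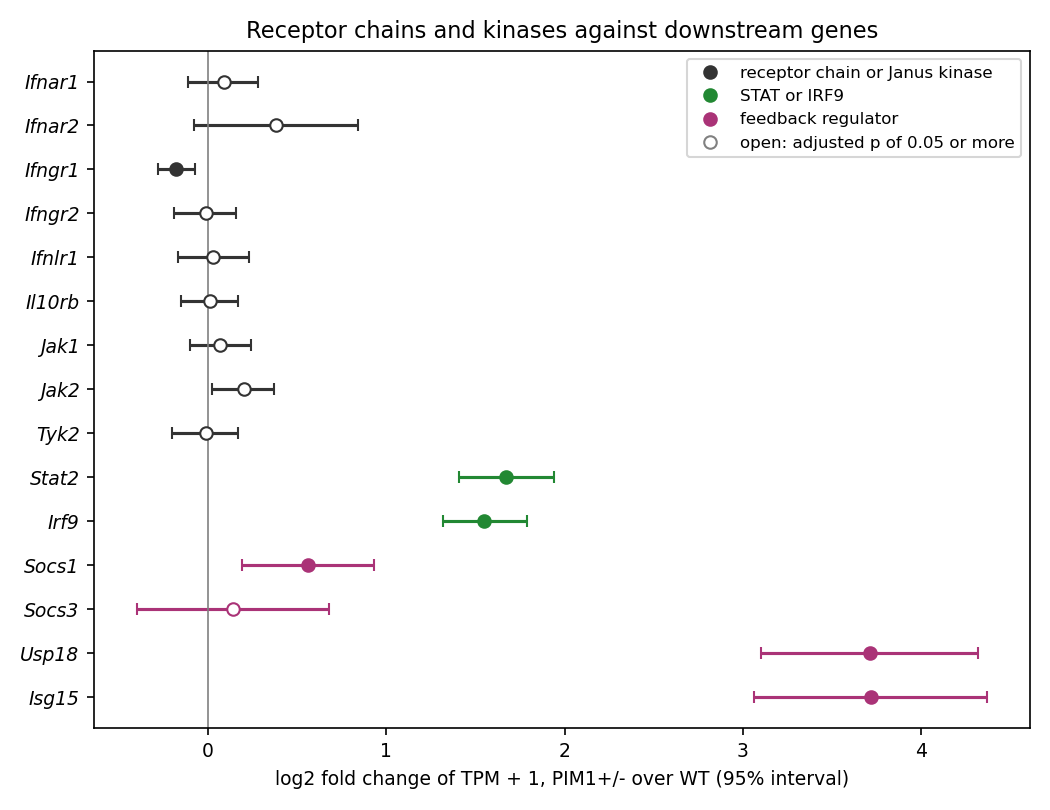
Log2 fold change of TPM + 1, PIM1+/- over WT (horizontal axis), with 95% limma intervals, for the 9 receptor and kinase genes (black), Stat2 and Irf9 (green) and feedback genes (purple); filled points passed an adjusted p of 0.05. The 9 receptor and kinase genes lie between -0.18 and 0.38, and Stat2, Irf9, Usp18 and Isg15 between 1.55 and 3.72.

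The sequences in front of the start sites were searched for letters that interferon-activated factors are known to bind. Those printed are those of Ifngr1, the member that passed the test, of Ifnar2, the member with a motif match, and of Stat2 and Isg15, which rose and were picked because they hold a match. Each is the 250 bases before the start site of the RefSeq gene on GRCm38.p6, 5′ to 3′ on the gene's strand, with capitals for a match to GAAA, any pair of bases and GAAA again, the core of the interferon-stimulated response element bound by the complex that holds STAT2 and IRF9, or to TTCNNNGAA, the gamma-activated site bound by STAT dimers. Both strands were searched. The 2 motifs share no overlap in these windows, and the choice of motifs and genes was made with the expression values known.
Ifngr1 promoter (chr10:19591699-19591948, plus strand): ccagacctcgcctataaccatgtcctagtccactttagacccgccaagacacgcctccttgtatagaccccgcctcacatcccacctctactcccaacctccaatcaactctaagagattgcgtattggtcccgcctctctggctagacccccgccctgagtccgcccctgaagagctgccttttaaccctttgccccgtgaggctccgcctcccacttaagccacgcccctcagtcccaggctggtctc
Ifnar2 promoter (chr16:91372533-91372782, plus strand): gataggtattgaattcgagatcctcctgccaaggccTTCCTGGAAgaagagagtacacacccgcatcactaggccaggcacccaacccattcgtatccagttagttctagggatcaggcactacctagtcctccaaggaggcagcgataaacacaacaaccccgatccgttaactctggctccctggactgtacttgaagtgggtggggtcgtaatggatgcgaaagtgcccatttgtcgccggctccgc
Stat2 promoter (chr10:128270248-128270497, plus strand): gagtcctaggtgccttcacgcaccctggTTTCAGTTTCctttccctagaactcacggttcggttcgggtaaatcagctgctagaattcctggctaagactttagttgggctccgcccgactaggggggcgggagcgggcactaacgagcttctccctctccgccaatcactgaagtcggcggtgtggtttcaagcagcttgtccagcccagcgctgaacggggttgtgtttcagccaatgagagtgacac
Isg15 promoter (chr4:156200819-156201068, minus strand): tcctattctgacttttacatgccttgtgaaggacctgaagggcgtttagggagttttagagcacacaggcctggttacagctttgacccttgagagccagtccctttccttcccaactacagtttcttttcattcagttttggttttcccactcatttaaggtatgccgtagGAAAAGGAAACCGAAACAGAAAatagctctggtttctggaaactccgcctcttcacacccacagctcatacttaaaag
Promoters were found for 8 of the 9 members, and Il10rb had no entry. The response element letters occurred in 0 of these 8 windows and in 2.98% of 32851 promoter windows in the same table. The gamma-activated letters occurred in 1 of 8, that of Ifnar2, where the match begins 214 bases before the start, and in 7.02% of all windows. The Stat2 window held 1 response element match that begins 222 bases before the start, and the Isg15 window 3 that overlap each other, beginning 78, 72 and 66 bases before it. The Socs1 window held 2 response element matches, while the 2 windows of Irf9, which rose as well, held no match to either motif. A match describes letters in a window and is neither a shown binding site nor a cause, and with so low a share in all promoters the absence of a match in 8 is no finding.

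Of the 6 receptor chains 4 lie side by side on chromosome 16, in the order Ifnar2, Il10rb, Ifnar1 and Ifngr2, all on the plus strand within 193 kb. Their levels differed although they are neighbours, from 2.4 TPM for Ifnar2 to 42.6 TPM for Ifngr2, and none of the 4 passed the test. Within 200 kb of the cluster lie 11 further protein-coding genes, of which 7 were high enough to test. A single neighbour of these 7 passed, beside 17.5% of all tested genes. It was Dnajc28, a member of the DnaJ family, which fell from 3.68 ± 0.425 to 2.18 ± 0.42 TPM (-0.56 ± 0.13, adjusted p = 0.019). That call was lost without WT replicate 1 (adjusted p = 0.0513) or WT replicate 4 (0.0557), with no filter on low values (0.0646) and with the non-epithelial score as a covariate (0.257). Tmem50b (-0.15 ± 0.08), Gart, an enzyme of purine synthesis (-0.06 ± 0.09), the splicing cofactor gene Son (-0.10 ± 0.06), Cryzl1 (-0.11 ± 0.07), the endocytic scaffold gene Itsn1 (-0.32 ± 0.11, adjusted p = 0.0633) and the replication gene Donson (0.49 ± 0.31) stayed short of the threshold. Olig1, Olig2 and the predicted gene Gm21970 did not reach 1 TPM in any library, and the annotated Atp5o model at this place (ENSMUSG00000116933) was listed at 0 throughout. Gm21970 overlaps both Ifnar2 and Il10rb on the same strand, so reads could be divided among them, and it was listed at no more than 0.21 TPM. The genes annotated over Jak1 and Tyk2 on the opposite strand, whose reads could not be told apart if strand was not used, reached at most 0.16 TPM (Raver2) and 0.55 TPM (1700084C06Rik).

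**Figure D4:**
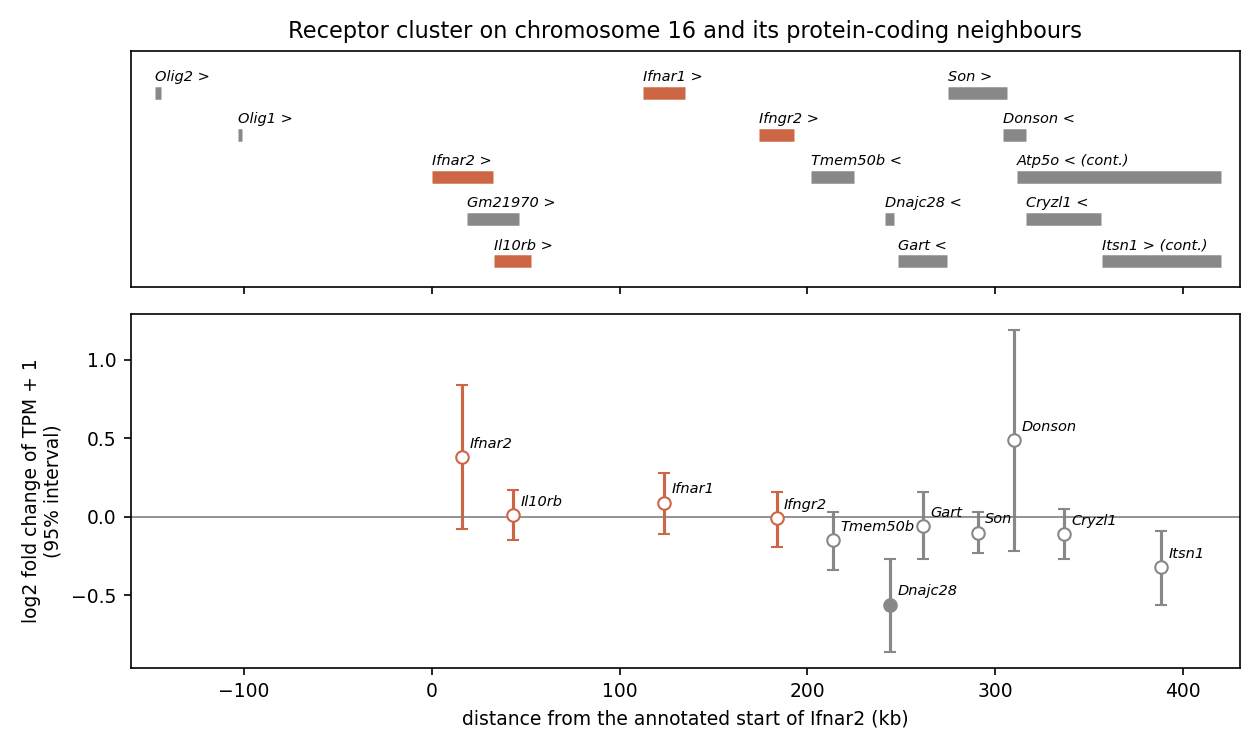
Upper panel, map of the receptor cluster and its protein-coding neighbours on chromosome 16 in kb from the annotated start of Ifnar2 (orange, receptor chains; grey, neighbours; arrowheads give the strand; models running past the right edge are marked cont.). Lower panel, log2 fold change of TPM + 1 with 95% limma intervals for the tested genes, filled where the adjusted p was below 0.05; Dnajc28 (-0.56) is the filled point.

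Interferon transcripts themselves were at or near 0. Of 21 interferon ligand genes measured, 18 were listed at 0 in every library, among them Ifnb1, the beta interferon gene, and the lambda genes Ifnl2 and Ifnl3. Ifng, the type II interferon gene, was the single ligand to reach 1 TPM in any library. It measured 0.53, 1.02, 0.27 and 0.84 TPM in the WT libraries and 0.35, 0.48, 1.96 and 0.73 TPM in the PIM1+/- libraries, overlapping ranges, and was too low to enter the test. A listed 0 at an unknown depth does not show that a ligand was absent, and cells outside the sampled fraction were not analysed here.

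Receptors that share chains or kinases with the interferon system were read from a list of 24 further genes, of which 13 could be tested. Of these 1 rose and 2 fell, with a median of -0.16, beside 8.93% higher and 8.54% lower over all tested genes. Il4ra, the shared chain of the IL-4 and IL-13 receptors, rose from 6.4 ± 0.746 to 9.52 ± 1.58 TPM (0.50 ± 0.13, adjusted p = 0.026). Ghr, the growth hormone receptor and a user of JAK2, fell from 8.04 ± 2.2 to 2.54 ± 0.202 TPM (-1.32 ± 0.16, adjusted p = 0.00093), and passed in all 8 fits that left out 1 library. Il11ra1, the IL-11 receptor chain, fell from 12.1 ± 2.51 to 7.65 ± 1.94 TPM (-0.61 ± 0.18, adjusted p = 0.0493). The calls on Il4ra and Il11ra1 were each lost in 5 of those 8 fits, with adjusted p up to 0.0731 and 0.116, and with the non-epithelial score as a covariate Ghr (adjusted p = 0.136), Il4ra (0.383) and Il11ra1 (0.318) did not pass. Il22ra1, which pairs with IL10RB to form the IL-22 receptor, stood at 10.3 ± 0.654 and 9.18 ± 0.654 TPM (-0.15 ± 0.08, adjusted p = 0.242), and Il10ra, the IL-10 chain found on leukocytes, did not exceed 0.17 TPM in any library.

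Across the 8 libraries, the log2 levels most like those of Ifngr1, which had both the highest mean and the smallest p of the members, were those of Oxr1 (Pearson r = 0.981), Lhpp (0.98) and Tppp3 (0.978), among 9056 genes with a mean of at least 5 TPM. These r values describe 8 libraries in which the genotypes already differ, and all 3 genes were lower in PIM1+/- libraries (log2 fold changes -0.33 ± 0.08, -0.41 ± 0.09 and -0.97 ± 0.15).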

How the data were processed

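RNA of the 8 libraries was isolated with TRIzol, per the labels' protocols, and read on an Illumina sequencer. The authors deposited 1 table of TPM per gene. RSEM made these values according to the design text, while the submitters' processing notes list HISAT2, StringTie, edgeR and the build GRCm38.p6 with no version or purpose. Annotation release, strand setting and depth are not given in those sources. Since TPM fixes the sum of each library, a change in abundant transcripts moves all other values. Columns were matched to libraries by their names, which carry genotype and replicate number, and all 8 were used.

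Genotypes were compared on log2(TPM + 1) with limma 3.58.1 (R 4.3.3; moderated variance with an intensity trend, two-sided) in genes reaching 1 TPM in 4 or more libraries, with Benjamini-Hochberg adjustment. Exact permutation tests used all 70 splits. The members, gene lists and rules were chosen with earlier results of these data known. Named were the 9 members, Pim1, Jak3, Stat2, Irf9, Socs1, Socs3, Usp18, ligands reaching 1 TPM, up to 3 called genes per list and direction, the neighbours within 200 kb of the cluster, and for the member with the smallest p and the member with the highest mean, the same gene, the 3 genes most like it. Others were chosen after their values were seen: Epcam and the other cell type markers named singly, Il22ra1, Il10ra, Ifnb1, Ifnl2, Ifnl3, Irf1, the other Stat genes and the genes overlapping members. One gene of the naming rule is not reported here. Positions came from GENCODE M21 (GRCm38). Sh2b3 and Rack1 were listed under older symbols too and counted once. Nuclear copies of mitochondrial genes were 16 pseudogenes matched with BLAST+ 2.17.0. The non-epithelial score was the mean standardised level of 30 tested markers and correlated with genotype at 0.843. Some of these markers had passed the filter through PIM1+/- libraries alone. Same-numbered libraries were checked for pairing and did not deviate together (correlations -0.136 to 0.032), so no block was used. Alternatives are given under the dependence on processing.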

Additional observations from a re-analysis of the deposited data

Results flagged for a closer look

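The search covered 74 groups of 4 libraries, from 37 values. Most of these are named in the results, and some named genes, such as Irf1 and Epcam, were not searched. In 5 groups a library lay far from the other 3 relative to the group's range, where chance flags about 1 in 20 groups, or 3.7. Ifnar1 stood at 14.64 TPM in WT replicate 1, against 12.63 to 12.84 TPM in the other WT libraries. Tyk2 stood at 12.81 TPM in WT replicate 2, against 15.27 to 15.72 TPM. Pias2 stood at 20.54 TPM in WT replicate 3, against 18.77 to 19.02 TPM. In PIM1+/- replicate 1 Usp18 stood at 66.19 TPM, against 27.19 to 33.64 TPM in the other PIM1+/- libraries, and Donson at 16.06 TPM, against 4.47 to 5.62 TPM.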

How the results depend on the processing

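The number of members higher in PIM1+/- was 0 in every alternative run (2 members, Ifngr1 and Jak2, had an unadjusted limma p under 0.05, of which Jak2 was the higher one). The number lower was 1, and 0 without the trend, with the replicate block, with the non-epithelial score as covariate and at a threshold of 0.01, and 0 to 1 over the fits without 1 library. The 8 other members passed in none of the alternative limma runs, at most 18 per gene and 142 values in all, the smallest adjusted p being 0.055. With the replicate number as a block, Ifngr1 had an adjusted p of 0.0904, and no other member's call changed; all tested genes gave 760 higher and 689 lower. The labels tie these libraries by number alone, and no same-numbered pair correlated above 0.032. That check cannot show whether such a pair shared anything else. In the scaling without mitochondrial transcripts and their nuclear copies, all tested genes gave 736 higher and 2240 lower (median log2 fold change -0.11), and the log2 fold changes of Ifnar1, Ifnlr1, Il10rb and Jak1 turned to -0.01, -0.06, -0.09 and -0.03, with ratios of mean TPM of 0.993, 0.951, 0.939 and 0.974. With the non-epithelial score as covariate, 108 genes were higher and 25 lower, and Ifnar1, Ifnar2, Ifnlr1 and Il10rb turned to -0.07, -0.32, -0.01 and -0.10. No filter gave 773 higher and 666 lower, and a threshold of 0.01 gave 471 and 365. Over the fits without 1 library, all tested genes gave 744 to 1009 higher (744 without WT replicate 4) and 602 to 1041 lower (602 without WT replicate 1, 679 without WT replicate 3, 672 without WT replicate 4). The log2 fold change ran from -0.07 to 0.03 for Ifngr2, from -0.04 to 0.07 for Il10rb and from -0.08 to 0.01 for Tyk2, and their ratios of mean TPM from 0.955 to 1.02, 0.976 to 1.05 and 0.944 to 1.01. These reversals were of values that did not pass, and the cause of the other changes was not tested. The intervals, not the depth, which is unknown, bound the changes that could have been missed, on the scale of TPM + 1. For Ifnar2, whose level was low, the ratio of mean TPM was 1.48. With 0.1 in place of 1 added to TPM, its log2 fold change was 0.51 ± 0.29 (limma adjusted p = 0.25). The Ifnar2 interval on TPM + 1 therefore does not bound its change in TPM.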
